A study of Mus musculus with 62 samples.

Results

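The genes described here are 32 genes of cell division, measured in mouse brown adipose tissue: 11 that copy DNA or supply its building blocks, and 21 that carry out mitosis. They were chosen by name, as a list of replication and mitosis genes, by a rule that uses no measured value. The choice was made with earlier results of these data known. All 32 were found among the 47643 gene symbols of the expression table. Only 13 of the 32 reached 1 TPM (the authors' length-normalised share of transcripts) in at least 5 of the 62 libraries, the level set for testing, which 12581 genes reached in all. The other 19 are described by their values.

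The study followed cachexia, the wasting that some tumours bring about, over time in mice carrying melanoma. CAC mice received cachectic melanoma cells, NCAC mice received melanoma cells that do not cause cachexia, and Con mice were mock injected. Brown adipose tissue was collected at 2, 4, 6 and 8 weeks after injection, which gives 12 groups of 5 libraries, except that CAC at 8 weeks has 7. All mice were female and 2 months old per the labels, with no transgene stated. That age is taken as the age at injection, so within CAC, NCAC or Con later weeks also mean older mice. The sample labels name the strain C57BL6/J while the series text names NCI Ath/nude mice, so the host strain, and with it which immune cells the hosts have, is not settled by the sources used here. The labels call the libraries biological replicates but do not say that each is 1 animal, so p-values measure only the spread between these libraries, and the comparisons of 1 group with the others share its libraries.

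A cell enters division by firing its replication origins. The MCM2-7 complex is the helicase that opens the DNA, PCNA is the ring that holds the polymerases on it, and ribonucleotide reductase and thymidylate synthase make the deoxynucleotides. Cyclin-dependent kinase 1 with cyclins A and B then drives mitosis, the spindle and its motors separate the chromosomes, and the anaphase-promoting complex ends the phase by destroying the cyclins. Most of these genes are silent in resting cells: the DREAM complex holds their promoters at the CHR element (cell cycle genes homology region), with NF-Y at CCAAT boxes, and E2F factors act at their own sites. Mature brown adipocytes rarely divide, and dividing cells in brown fat are usually precursors, vessel cells and immune cells.

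Of the 32 members, 28 had a promoter in the RefSeq table of GRCm38.p6, and 3 motifs were searched on both strands in windows of 300 bases, from 250 before to 50 after each start. The motifs were the CHR (TTTGAA or TTCGAA), the CCAAT box (CCAAT) and the E2F site (TTTCCCGC, TTTGGCGC, TTTCGCGC or TTTGCCGC). None of them holds another, but neighbouring matches can overlap. A CHR was found in 14 of 18 mitosis promoters (77.8%) and in 2 of 10 replication promoters (20.0%), beside 19.2% of all 32851 promoters. An E2F site was found in 4 of 10 replication promoters (40.0%) and 1 of 18 mitosis promoters (5.56%), beside 2.26% of all promoters. CCAAT boxes were in 8 of 10 and 16 of 18, beside 37.4% of all. The matches describe the letters in these windows only. Below are the 150 bases before the start of 6 members, written 5′ to 3′ on the gene's own strand, with every match in capitals on either strand. Cks2 and Hmgb2 were chosen by rule as the mitosis members with the lowest p-values that have a promoter in the table. Mki67, Top2a, Cdk1 and Mcm6 were added after the matches were seen, because they hold several. The rule also chose Pcna and Mcm7, which are not printed because 134 and 150 of the 150 bases lie in annotated exons; in Cdk1 26 of the 150 do, and in the other 5 printed windows 0.
Mcm6 (chr1:128359706-128359855, minus strand): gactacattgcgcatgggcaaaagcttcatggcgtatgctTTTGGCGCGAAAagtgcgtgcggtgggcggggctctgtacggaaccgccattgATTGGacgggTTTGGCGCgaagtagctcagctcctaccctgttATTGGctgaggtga
Cdk1 (chr10:69352913-69353062, minus strand): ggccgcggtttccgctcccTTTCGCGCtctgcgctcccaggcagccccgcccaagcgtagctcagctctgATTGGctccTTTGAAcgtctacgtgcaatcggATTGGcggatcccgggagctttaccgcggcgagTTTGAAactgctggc
Mki67 (chr7:135716380-135716529, minus strand): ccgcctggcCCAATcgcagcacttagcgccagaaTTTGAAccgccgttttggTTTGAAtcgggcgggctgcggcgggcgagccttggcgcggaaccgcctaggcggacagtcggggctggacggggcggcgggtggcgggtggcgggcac
Top2a (chr11:99024190-99024339, minus strand): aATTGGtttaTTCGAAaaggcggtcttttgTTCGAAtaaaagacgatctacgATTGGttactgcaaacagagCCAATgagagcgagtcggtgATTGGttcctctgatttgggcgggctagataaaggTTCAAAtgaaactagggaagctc
Cks2 (chr13:51645082-51645231, plus strand): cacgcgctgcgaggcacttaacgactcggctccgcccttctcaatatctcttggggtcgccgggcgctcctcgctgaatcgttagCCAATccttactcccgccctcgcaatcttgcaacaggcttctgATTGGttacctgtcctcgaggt
Hmgb2 (chr8:57511693-57511842, plus strand): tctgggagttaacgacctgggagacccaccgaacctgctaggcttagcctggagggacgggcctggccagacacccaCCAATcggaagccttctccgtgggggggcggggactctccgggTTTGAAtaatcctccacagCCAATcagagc
In Mcm6 the first capital run is made of 2 overlapping E2F sites. Cdk1 holds all 3 kinds of motif, and Top2a holds 3 CHR elements among 4 CCAAT boxes.

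At the level of the whole tissue, the division genes were a minor part of the RNA, and the highest members were replication genes. The 2 classes overlapped. The mitosis members Hmgb2 (mean 3.30 TPM), Stmn1 (3.19) and Cks2 (2.56) stood above the replication member Mcm3 (1.74), and Tk1 (0.179) stood below Mki67. On the TPM scale, which is per length, Pcna had the highest mean of the 32 over all libraries (18.6 TPM, range 14.2 to 29.4), followed by Rrm1 (11.8, range 7.78 to 19.8) and Mcm7 (4.51, range 2.90 to 7.37). The defining genes of mitosis were far lower. Mki67, the chromosome-coating protein whose antibody stain is the usual mark of dividing cells, averaged 0.384 TPM, Cdk1 0.348, Top2a 0.248 and Cenpf, a kinetochore protein, 0.0585. Of the 21 mitosis members only Cks2, Stmn1 and Hmgb2 passed the level for testing, and 18 did not. Of the 11 replication members only Tk1, the thymidine salvage kinase, did not. The 19 members below the level reached 1 TPM in 0 to 4 libraries each, but were rarely absent: 1 value of all was listed at 0, that of Cenpf in NCAC replicate 3 at 8 weeks. Depth is unknown, since TPM hold no counts, and how firmly such low values are measured cannot be given. In bulk tissue fewer dividing cells and less RNA per cell cannot be told apart.

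The members not yet described had these ranges of group means over the 12 groups. Among the cyclins, Ccna2 ran from 0.252 TPM (CAC, 6 weeks) to 0.783 (NCAC, 8 weeks), Ccnb1 from 0.114 to 0.279 and Ccnb2 from 0.227 to 0.678. Cks2, a small partner of the kinase, ran from 1.97 (Con, 6 weeks) to 3.24 TPM (CAC, 2 weeks). Of the machinery that ends mitosis, Cdc20, the activator of the anaphase-promoting complex, ran from 0.275 (CAC, 8 weeks) to 0.697 TPM (Con, 4 weeks), and its ubiquitin-conjugating enzyme Ube2c from 0.242 to 0.489. The passenger proteins Birc5 (survivin) and Cdca8 (borealin), which correct wrong attachments of chromosomes, ran from 0.140 to 0.383 and from 0.0966 to 0.228 TPM. Among spindle and cytokinesis genes, the motors Kif11 and Kif23 ran from 0.135 to 0.338 and from 0.223 to 0.408 TPM, and the midzone bundler Prc1, the spindle protein Nusap1 and Racgap1, which places the furrow, lay between 0.0691 and 0.356 TPM. Hmgb2, a chromatin protein, ran from 2.56 to 4.48 TPM. The highest group mean of the 12 was in NCAC at 8 weeks for 19 of 32 members, and without the libraries set out next it was in that group for 0 and in CAC at 2 weeks for 12. The lowest was in Con at 8 weeks for 12 and in CAC at 6 weeks for 9. The shares of all genes with their highest or lowest mean in these groups were not counted. Ordered by mean, neighbouring groups differed by less than the smaller of their SDs in 332 of 352 steps over the 32 members.

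**Figure D1:**
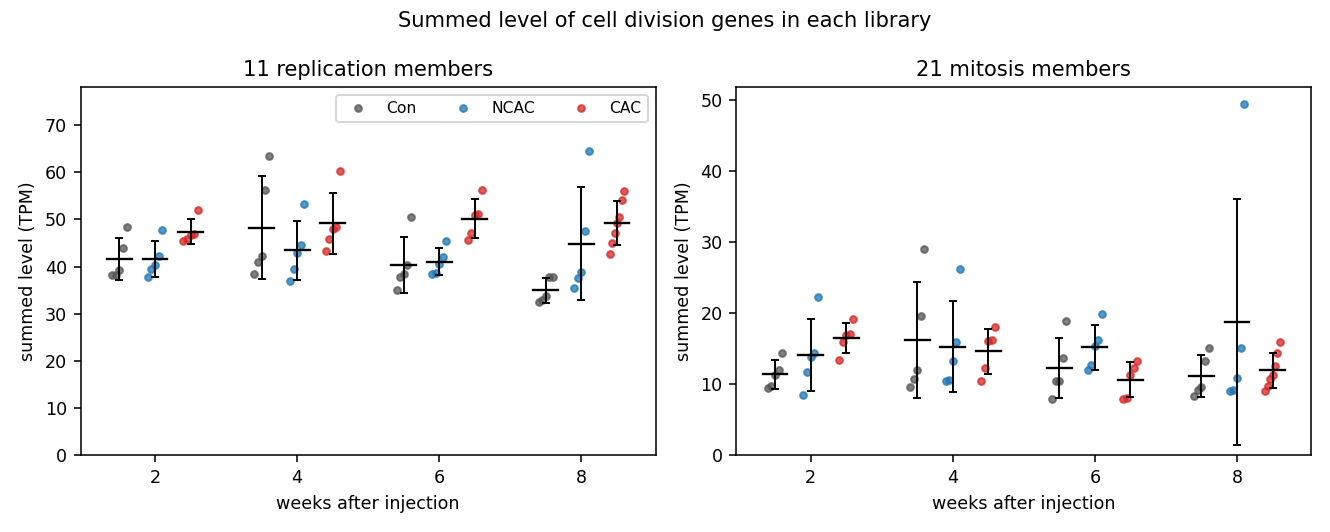
Summed TPM of the 11 replication members (left) and the 21 mitosis members (right) in each of 62 libraries, by week and group. Points are libraries, horizontal bars are means and vertical bars are SD (n = 5, or 7 in CAC at 8 weeks). NCAC replicate 5 at 8 weeks lies far above all others in the mitosis sum, at 49.4 TPM.

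Libraries that stood apart, 3 in all, touch several of the results. In NCAC replicate 5 at 8 weeks, 25 of the 32 members had their highest value of all 62 libraries. Its mitosis members summed to 49.4 TPM, against 9.06 to 15.1 TPM in the other 4 libraries of its group. The ratio of its level to the mean of those 4 had a median of 2.49 over replication members and 7.06 over mitosis members, from 1.02 for Rrm1 to 10.8 for Cenpf. Of its group it had the highest marker sums of skeletal muscle (5675 TPM), gland and surface epithelium (116), and adipocyte progenitors and fibroblasts (373). The same held for red cell precursors (2826 TPM), macrophages (91.6) and T and NK cells (1.15). Its B cell (10.8 TPM) and neutrophil (6.99) sums were the lowest of the group. What part these have in the result was not tested. In Con replicates 3 and 4 at 4 weeks, mitochondrially encoded transcripts took 39.6% and 39.7% of the TPM, against 57.1% to 58.7% in the other 3 of that group. All 32 members were higher in the mean of that pair than in the mean of the other 3, by a median ratio of 1.70 for replication and 3.03 for mitosis members. Genes in general were also higher in the pair. The median ratio of a gene to its geometric mean over all libraries was 1.35 in both, and 0.948 to 0.998 in the other 3. Macrophage markers summed to 138 and 152 TPM in the pair, against 54.2 to 75.6 in the other 3, and brown adipocyte markers to 13530 and 14220 TPM, against 8441 to 9624. Replicate 4 also had the highest skeletal muscle sum (14380 TPM) and the highest gland and surface epithelium sum (181 TPM) of all 62 libraries. What part these have in the levels of the pair was not tested. The counts of members by direction that rest on these libraries are given with and without them. Beyond these, 1 library often led its group over most members at once: replicate 3 was highest in NCAC at 2 weeks for 28 members, replicate 2 in NCAC at 4 weeks for 30, and replicate 2 in Con at 6 weeks for 29. Markers of the labelled tissue, 8 brown adipocyte genes with Ucp1 among them, summed to between 4928 and 14220 TPM in every library.

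All tests below were made with limma on log2(TPM + 1), in 1 model over the 62 libraries, and log2 differences are on that scale, which understates changes of genes near or below 1 TPM. Calls were made at an adjusted p under 0.05, by Benjamini-Hochberg over the 12581 genes of each comparison.

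At 2 weeks the division genes were on the whole higher in CAC than in Con, at low levels, and none passed the test. The mean of CAC was above that of Con for 32 of 32 members, with a median ratio of means of 1.48, and 70.1% of 20773 genes with any detection were also higher. After rescaling the libraries by the median of gene ratios, 31 of 32 were higher, beside 51.2% of all genes, and Rrm1 turned lower. The 5 CAC libraries all lay above the 5 Con libraries for 9 members: Mcm3, Hmgb2, Mki67, Top2a, Cdk1, Ccnb2, Bub1b, Tpx2 and Kif11. That compares with 6.34% of all genes; after rescaling it was 5 members, Mcm3, Mki67, Top2a, Cdk1 and Kif11, against 3.32%. Mki67 had 0.247, 0.281, 0.233, 0.129 and 0.253 TPM in Con and 0.581, 0.442, 0.649, 0.467 and 0.431 TPM in CAC, means of 0.229 ± 0.059 and 0.514 ± 0.096 (SD, n = 5). Every CAC library was above every Con library, and the means differed 2.25-fold. Top2a, the topoisomerase that untangles sister chromosomes, had 0.145, 0.172, 0.112, 0.0743 and 0.173 TPM in Con and 0.371, 0.379, 0.443, 0.288 and 0.272 TPM in CAC. Those groups did not overlap either. Cdk1, the mitotic kinase, had 0.196, 0.312, 0.183, 0.146 and 0.251 TPM in Con and 0.409, 0.339, 0.535, 0.637 and 0.355 TPM in CAC, again without overlap.

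The largest ratios at 2 weeks were in Bub1b, a spindle checkpoint kinase (2.62-fold), Top2a (2.60-fold) and Tk1 (2.36-fold), and the smallest was in Rrm1 (1.02-fold). None of the 13 tested members was called by limma, where 4.63% of all genes were (4.58% higher and 0.0477% lower), and 0 had an unadjusted p under 0.05; the lowest adjusted p was 0.331, for Mcm7. With no filter on low values and a pseudocount of 0.1, an alternative added after seeing the data, all 32 could be tested. Again 0 were called, with 6 at an unadjusted p under 0.05; limma gave Top2a a log2 difference of 0.94 (SE 0.42, adjusted p = 0.229). When only the CAC and Con libraries of that week were fitted, limma called Mcm3 (log2 difference 0.23, SE 0.06, adjusted p = 0.0379) and Hmgb2 (0.39, SE 0.09, adjusted p = 0.0224). Against NCAC at 2 weeks limma called 0 members in CAC, with 2 at an unadjusted p under 0.05, where 0.0397% of all genes were called, all of them higher. CAC had the higher mean for 26 of 32 (21 after rescaling), beside 70.3% of all genes (50.6% after rescaling). NCAC at 2 weeks lay across both CAC and Con, with Mki67 from 0.190 to 0.839 TPM. It was higher than Con by its mean for 25 of 32 members, beside 51.4% of all genes, none of the members without overlap. Macrophage markers moved with the difference, summing to 87.6 to 137 TPM in CAC and 45.2 to 71.6 TPM in Con, as did adipocyte progenitor and fibroblast markers, at 297 to 458 against 148 to 211 TPM. Neither overlapped. Skeletal muscle markers were at 961 to 10580 against 58.1 to 1734 TPM, with overlap. Their part in the difference was not tested.

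**Figure D2:**
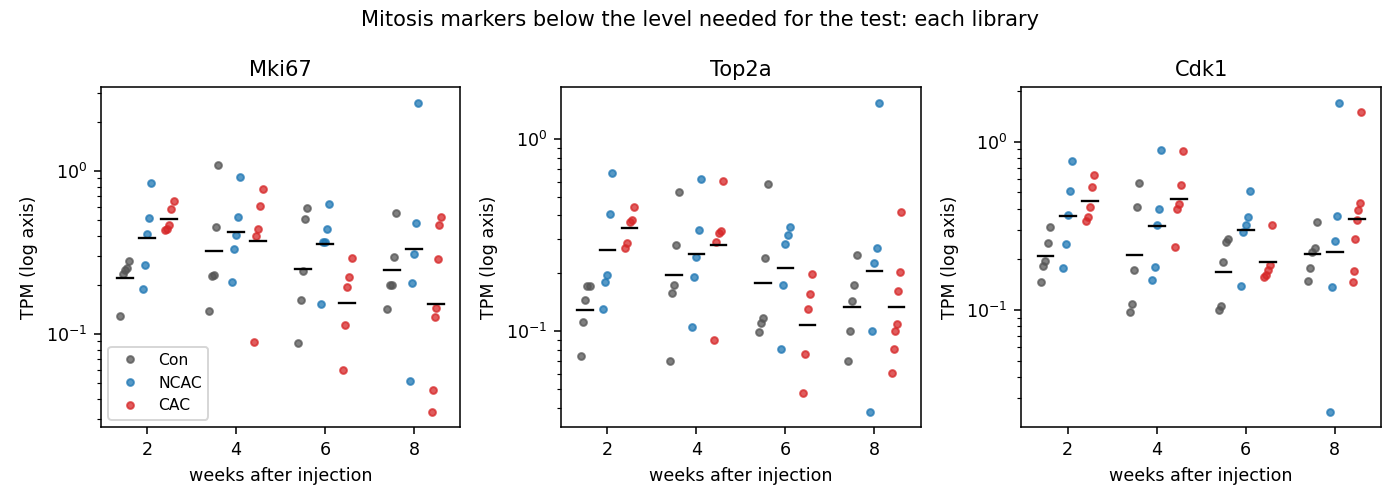
Level of Mki67, Top2a and Cdk1 in each library by week and group, on a log axis of TPM; points are libraries and bars are geometric means. At 2 weeks the CAC points of all 3 genes lie above the Con points, and at 8 weeks 1 NCAC library lies far above the other libraries of its group.

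At 4 weeks no member was called in CAC against Con (3.85% of all genes called) or against NCAC (0.588%). Unadjusted, 1 member was higher and 1 lower against Con, and 2 were higher and 1 lower against NCAC. Mki67 ranged from 0.0893 to 0.770 TPM in CAC, 0.208 to 0.916 in NCAC and 0.137 to 1.09 in Con, so the groups overlapped throughout. Relative to Con, 18 of 32 members had the higher mean in CAC, where 35.4% of all genes were higher. Without Con replicates 3 and 4 it was 31 of 32, with a median ratio of 1.51, where 62.8% of all genes were higher. NCAC, set against the same Con libraries, had the higher mean for 14 of 32 members with the pair, where 23.2% of all genes were higher. Without the pair it was 29 of 32, with a median ratio of 1.48, where 55.6% of all genes were higher. Leaving out that pair did not bring a call in CAC against Con.

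At 6 weeks members of the list went in both directions. In CAC, a nucleotide-supply enzyme was higher and a microtubule regulator was lower, against both control groups, while most mitosis genes had lower means. Rrm1, the large subunit of ribonucleotide reductase (chr7:102441695-102469771, plus strand, mm10), had 16.4, 14.9, 13.3, 18.7 and 14.7 TPM in CAC. It had 10.5, 13.9, 9.40, 12.1 and 8.41 TPM in Con and 10.4, 12.1, 8.64, 8.72 and 9.63 TPM in NCAC. All CAC libraries were above all NCAC libraries, and 4 of 5 were above all Con libraries. The log2 difference by limma was 0.49 (SE 0.13, adjusted p = 0.00724) against Con and 0.61 (SE 0.13, adjusted p = 0.00177) against NCAC. After rescaling it was 0.29 against Con, no longer called (adjusted p = 0.123), and 0.52 against NCAC, still called (adjusted p = 0.00153). Its partner Rrm2, the small subunit that limits the enzyme in dividing cells, did not pass the test, at 0.388 to 0.521 TPM in CAC, 0.386 to 1.13 in Con and 0.409 to 0.699 in NCAC.

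Tyms, thymidylate synthase (chr5:30058202-30073617, minus strand), had 1.08, 1.48, 1.53, 1.15 and 1.62 TPM in CAC at 6 weeks and 0.577, 1.48, 0.650, 0.983 and 0.722 TPM in Con. CAC was higher apart from Con replicate 2, which led its group for most members. Its log2 difference by limma was 0.35 (SE 0.13, adjusted p = 0.0420), and the call was lost in 6 of 10 fits with 1 library left out, with no filter, and after rescaling (0.24, adjusted p = 0.166). Against NCAC the difference was the same size and not called (0.35, adjusted p = 0.0815).

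Stmn1 (stathmin, chr4:134468320-134473843, plus strand), which takes apart microtubules, moved the other way. It had 1.36, 1.23, 2.25, 1.64 and 1.72 TPM in CAC at 6 weeks. It had 1.95, 5.06, 2.96, 3.66 and 3.80 TPM in Con and 4.48, 4.67, 2.46, 4.90 and 3.16 TPM in NCAC. All CAC libraries were below all NCAC libraries, and 4 of 5 were below all Con libraries. The log2 difference by limma was -0.74 (SE 0.24, adjusted p = 0.0239) against Con and -0.89 (SE 0.24, adjusted p = 0.0131) against NCAC, and after rescaling -0.89 and -0.94, both called. Against Con the call was lost, at the most to an adjusted p of 0.0618, when CAC replicate 1 or 2 or Con replicate 2 or 5 was left out. In all, 2 members were higher and 1 lower of 13 against Con, where 21.7% of all tested genes were called, and 1 and 1 against NCAC, where 7.77% were (5.82% higher and 1.95% lower). The higher calls against Con, 2 of 13, stand beside 20.7% of all genes called higher, and the single lower call beside 0.978% called lower.

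The low mitosis members also had lower means in CAC than in NCAC at 6 weeks. Against Con most did, but Ccnb1 (1.09-fold), Ccnb2 (1.15), Cdk1 (1.08) and Nusap1 (1.01) were higher. Over all members, 20 of 32 were lower against Con, beside 31.4% of all genes. After rescaling it was 25, beside 54.3%. Pcna lay above Con in every CAC library, as 9.93% of all genes did, but not after rescaling. Against NCAC, 25 of 32 members were lower (27 after rescaling), where 42.4% of all genes were (53.4% after rescaling); Tpx2, a spindle assembly factor, was below in every library, as 1.58% of all genes were. Mki67 had 0.114, 0.0597, 0.224, 0.195 and 0.293 TPM in CAC, and 0.366, 0.625, 0.437, 0.364 and 0.152 TPM in NCAC. The groups overlapped only through NCAC replicate 5. Against Con, with 0.0872, 0.589, 0.241, 0.161 and 0.504 TPM, the overlap was broad. Fitted without the filter and with the pseudocount of 0.1, limma gave Mki67 a log2 difference of -0.81 against NCAC (SE 0.48, adjusted p = 0.372). Macrophage markers summed to 199 to 248 TPM in these CAC libraries, 71.1 to 177 in NCAC and 52.0 to 166 in Con, with 5 of 7 called higher against Con. Neutrophil markers summed to 12.5 to 34.0, 6.10 to 18.0 and 5.63 to 9.20 TPM, without overlap against Con. B cell markers summed to 11.1 to 22.0, 11.4 to 47.5 and 14.5 to 54.6 TPM, with overlap. Gland and surface epithelium markers summed to 5.65 to 16.5, 1.22 to 176 and 11.6 to 80.2 TPM, also with overlap. The mitochondrial share of TPM was 50.9% to 53.5% in CAC and 57.1% to 66.1% in Con. Their part in these differences was not tested.

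**Figure D3:**
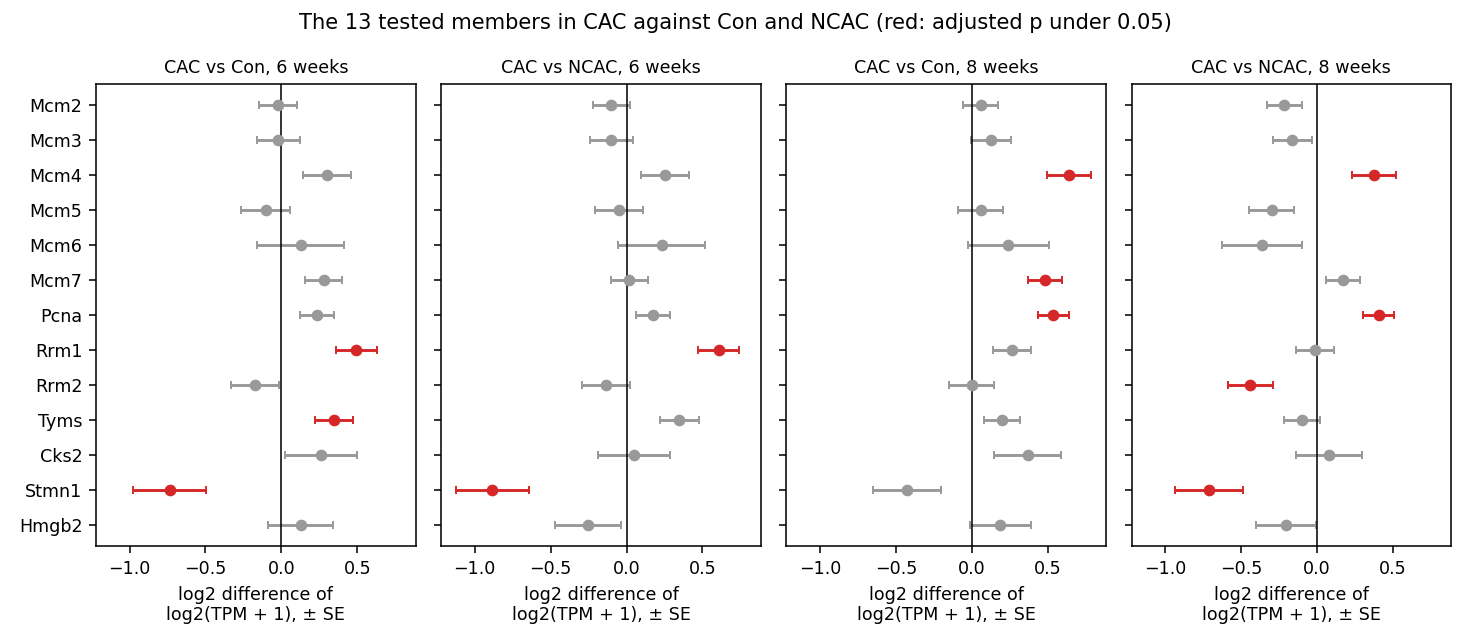
Log2 differences (points, with SE as bars) of the 13 tested members on the log2(TPM + 1) scale, in CAC against Con and against NCAC at 6 and 8 weeks. Red points passed the adjusted p threshold: at 6 weeks Rrm1 up and Stmn1 down against both controls and Tyms up against Con, and at 8 weeks Pcna and Mcm4 up against both, Mcm7 up against Con, and Stmn1 and Rrm2 down against NCAC.

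At 8 weeks, when the CAC libraries differed from Con in 54% of all tested genes, 3 of 13 tested members were higher in CAC than in Con and 0 were lower. All 3 were replication genes: Pcna, Mcm4 and Mcm7. The other 10 did not pass the test. The share is below that of all genes, of which 52.1% were called higher, and the median log2 difference of the 13 was 0.20, against 0.28 over all genes tested.

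Pcna (chr2:132249162-132253314, minus strand), the sliding clamp, also used in DNA repair, had 14.2, 17.0, 15.0, 18.2 and 14.8 TPM in Con at 8 weeks. In the 7 CAC libraries it ran from 17.6 to 28.0 TPM with a median of 24.1, and in NCAC it was 15.0, 15.6, 19.3, 15.2 and 23.0 TPM. Only the lowest CAC library, replicate 5, fell within the range of Con. The log2 difference by limma was 0.54 (SE 0.10, adjusted p = 3.19e-05) against Con and 0.41 (SE 0.10, adjusted p = 0.00155) against NCAC. Mcm4 (chr16:15623897-15637400, minus strand), a helicase subunit, had 1.59, 2.11, 1.83, 1.91 and 1.85 TPM in Con and from 2.16 to 4.64 TPM with a median of 3.89 in CAC. It was the only one of the 32 members with every CAC library above every Con library, as 9.87% of all genes were. Its log2 difference by limma was 0.64 (SE 0.15, adjusted p = 0.000296) against Con and 0.38 (SE 0.15, adjusted p = 0.0354) against NCAC, where it had 1.66, 2.25, 2.64, 1.83 and 4.39 TPM. The NCAC call was lost in 7 of 12 fits with 1 library left out, with no filter and after rescaling. Without NCAC replicate 5 it was 0.54 (adjusted p = 0.00321).

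Mcm7 (chr5:138164583-138172422, minus strand), another helicase subunit, had 3.35, 3.75, 3.17, 3.39 and 3.11 TPM in Con and from 3.59 to 6.98 TPM with a median of 4.85 in CAC. Only CAC replicate 7 fell within the range of Con. The log2 difference by limma was 0.48 (SE 0.11, adjusted p = 0.000455); against NCAC it was 0.17 and not called (adjusted p = 0.221). The other 4 subunits of the helicase had smaller differences: Mcm2, Mcm3, Mcm5 and Mcm6 had log2 differences against Con of 0.06, 0.13, 0.06 and 0.24, none of them called. For Mcm2 the CAC libraries ran from 0.695 to 1.30 TPM with a median of 0.921, beside 0.777, 1.02, 1.01, 0.853 and 0.601 TPM in Con. The helicase holds its subunits in equal number; the log2 differences of their transcripts ran from 0.06 to 0.64, and differences between subunits were not tested.

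How these calls stand depends on the scale. The median of all tested genes was 0.28 log2 units higher in CAC than in Con on the deposited scale, beside a mitochondrial share of TPM of 44.3% to 55.6% in CAC and 59.9% to 65.5% in Con. Rescaling by the median of ratios took the median to -0.01. Relative to that, Mcm4 was still higher (0.39, adjusted p = 0.0161), Pcna and Mcm7 were at 0.20 and no longer called (adjusted p = 0.0837 and 0.102), and Stmn1 was lower (-0.66, adjusted p = 0.0108). Over all 32 members, the mean in CAC was higher for 22 as deposited, beside 74.8% of all genes, and for 12 after rescaling, beside 47.9%. Macrophage markers were higher in 7 of 7 by the test, with sums of 130 to 345 TPM in CAC and 62.4 to 85.3 in Con, and none of the 7 was at 0 in any library. B cell markers summed to 6.11 to 18.5 TPM in CAC and 21.1 to 65.2 in Con. Gland and surface epithelium markers summed to 1.03 to 35.6 TPM in CAC and 15.5 to 111 in Con, with overlap. None of the 5 melanocyte markers passed the filter, and their sum stayed between 0.340 and 3.64 TPM over all libraries, with Tyr at 0 in 61 of 62. What part these cells have in the values of Pcna, Mcm4 and Mcm7 was not tested.

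**Figure D4:**
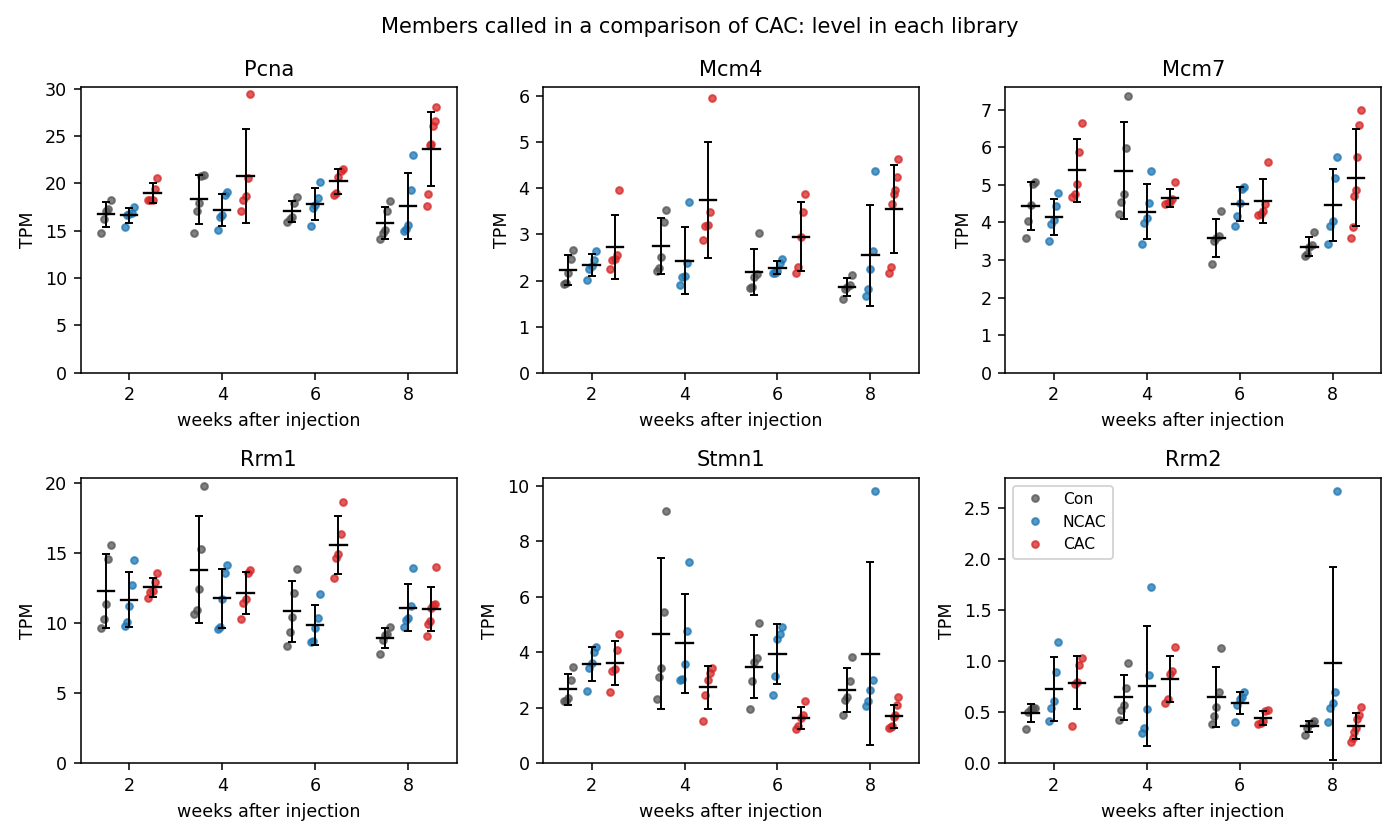
TPM of Pcna, Mcm4, Mcm7, Rrm1, Stmn1 and Rrm2 in each library by week and group; horizontal bars are means and vertical bars SD. By group mean Pcna is highest in CAC at 8 weeks (23.6 TPM), Mcm4 in CAC at 4 weeks (3.75 TPM, with 1 library at 5.97) and Rrm1 in CAC at 6 weeks (15.6 TPM), and the Stmn1 points of CAC at 6 and 8 weeks lie at the bottom of the panel.

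Against NCAC at 8 weeks, Pcna and Mcm4 were higher and Stmn1 and Rrm2 lower in CAC, 4 of 13 where 39.3% of all genes were called and 37.3% were called higher. The 2 lower calls, where 1.98% of all genes were called lower, rested on 1 library. Stmn1 had from 1.26 to 2.39 TPM with a median of 1.68 in CAC, against 2.26, 3.00, 2.05, 2.63 and 9.83 TPM in NCAC. Its log2 difference by limma was -0.71 (SE 0.22, adjusted p = 0.00964) and, without NCAC replicate 5, -0.38 (adjusted p = 0.131). Rrm2 had from 0.214 to 0.550 TPM with a median of 0.344 in CAC, against 0.593, 0.703, 0.402, 0.539 and 2.67 TPM in NCAC. Its log2 difference was -0.44 (SE 0.15, adjusted p = 0.0155) and, without that library, -0.19 (adjusted p = 0.233). When only the CAC and NCAC libraries of that week were fitted, 0 of the 4 were called. The direction of the whole list turned on that library too. With the library 28 of 32 members had the lower mean in CAC, beside 29% of all genes. Without it 15 of 32 did, beside 25.2%. After rescaling, and with the library, 30 were lower, beside 51.5% of all genes. Limma then called 0 higher and 5 lower: Mcm2, Mcm3, Mcm5, Rrm2 and Stmn1. In that library these 5 stood at 2.49, 2.53, 5.21, 4.77 and 3.96 times the mean of the rest of its group. No rescaled fit left that library out, and the share of all genes called after rescaling is not given here.

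NCAC against Con gave no call in any week, among the members or, but for 1 gene at 4 weeks, in the whole table (0%, 0.00795%, 0% and 0% of genes from 2 to 8 weeks). At 8 weeks 32 of 32 members had the higher mean in NCAC, with a median ratio of 1.93, beside 68.1% of all genes. By limma 8 of 13 had an unadjusted p under 0.05. After rescaling it was again 32 of 32 with the higher mean, beside 50.1% of all genes. Without NCAC replicate 5 it was 20 of 32, with a median ratio of 1.03, beside 58.8% of all genes, and 0 had an unadjusted p under 0.05. Mki67 had 0.206, 0.479, 0.0510, 0.308 and 2.62 TPM in NCAC and 0.297, 0.200, 0.553, 0.143 and 0.199 TPM in Con. Apart from that library the groups covered much the same range. Top2a in the same NCAC libraries was 0.0998, 0.272, 0.0380, 0.225 and 1.54 TPM, and Cdk1 was 0.136, 0.362, 0.0249, 0.256 and 1.70 TPM, so that the highest library and the lowest, replicate 3, were the same for all 3 genes.

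Within CAC, most members had lower means at 8 weeks than at 2 weeks, while Pcna was higher. The mean was lower at 8 weeks for 28 of 32 members (29 after rescaling), where 40.6% of all genes were lower (50% after rescaling), and the median ratio was 0.707. All 7 libraries of 8 weeks lay below all 5 of 2 weeks for Stmn1, Bub1b, Mcm5 and Tk1, as 1.29% of all genes did. Limma called Stmn1 and Mcm2 lower and Pcna higher, 3 of 13, where 20.5% of all genes were called. Neutrophil markers summed to 13.5 to 53.2 TPM at 8 weeks and 3.00 to 7.35 TPM at 2 weeks, without overlap; their part in these changes was not tested. Stmn1 had 4.65, 4.08, 3.34, 3.40 and 2.57 TPM at 2 weeks, and its log2 difference was -0.77 (SE 0.22, adjusted p = 0.0101). It was called with any 1 library left out and after rescaling (-0.82). Mcm2 had 1.50, 1.41, 1.26, 1.49 and 1.51 TPM at 2 weeks, and its log2 difference was -0.34 (SE 0.11, adjusted p = 0.0297). Pcna had 18.2, 19.4, 18.3, 20.6 and 18.2 TPM at 2 weeks, and its log2 difference was 0.29 (SE 0.10, adjusted p = 0.0375). After rescaling, limma called Stmn1, Mcm2, Mcm3 and Rrm2 lower and did not call Pcna (0.19, adjusted p = 0.0883). The share of all genes called on that scale is not given here. The Mcm2 call was lost in 7 of 12 fits and the Pcna call in 9 of 12 when 1 library was left out. Mki67 had a mean of 0.514 ± 0.096 TPM at 2 weeks and 0.231 ± 0.197 (SD, n = 7) at 8 weeks, with overlap, and was not called (limma without the filter, adjusted p = 0.0891). Cdk1 had a mean of 0.455 TPM at 2 weeks and 0.464 TPM at 8 weeks, where replicate 4 alone had 1.50 TPM and the other 6 had 0.146 to 0.430.

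Within NCAC, limma called 0 members at 8 against 2 weeks, with 1 (Hmgb2) at an unadjusted p under 0.05, where 0% of all genes were called. The mean was higher at 8 weeks for 31 of 32 members, with a median ratio of 1.35, where 44.5% of all genes were higher. Without replicate 5 of 8 weeks it was higher for 2, with a median ratio of 0.723, where 39.2% of all genes were higher.

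Whether the course from 2 to 8 weeks differed between groups was tested directly. No member's change differed in CAC from that in Con (11.6% of all genes called), in CAC from that in NCAC (5.2%) or in NCAC from that in Con (0%). Unadjusted, 3, 5 and 1 of the 13 members had a p under 0.05. After rescaling, limma called Mcm3 (-0.53, adjusted p = 0.0333) and Mcm2 (-0.49, adjusted p = 0.0347) in CAC against NCAC, a comparison that holds NCAC replicate 5 of 8 weeks. When only the CAC and Con libraries of both times were fitted, Stmn1 was called against Con (-0.75, adjusted p = 0.0292). The largest differences of change against Con by limma were in Stmn1 (-0.75, SE 0.33, adjusted p = 0.110) and Mcm4 (0.45, SE 0.21, adjusted p = 0.146). Without CAC replicate 3 of 8 weeks, Pcna was called (0.41, adjusted p = 0.0393). That library held red cell precursor markers at 16220 TPM, against a median of 1130 in its group.

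Within Con, mock-injected mice followed over 4 times, most replication members had lower means at 8 weeks than at 2 weeks, while the mitosis members were split. No member was called at 4, 6 or 8 weeks against 2 weeks, where 0.0238%, 1.96% (1.67% lower) and 0.0318% of all genes were, with 1, 0 and 2 at an unadjusted p under 0.05. At 8 weeks 10 of 11 replication members had a lower mean than at 2 weeks, all but Tk1, with a median ratio of 0.823, and 11 of 21 mitosis members had a higher one; 60.7% of all genes were lower. The replication members summed to 38.1 to 48.5 TPM at 2 weeks and 32.5 to 37.8 TPM at 8 weeks, without overlap. The largest parts of the sum were Pcna (means of 16.7 TPM at 2 weeks and 15.8 at 8 weeks) and Rrm1 (12.3 and 8.94). Taken singly, 0 of the 32 members had every library of 8 weeks below every library of 2 weeks, as 6.14% of all genes did. Con at 8 weeks was the lowest of the 12 groups for 10 of the 11 replication members. The factor used for rescaling, a median over genes, was also lowest in that group, with a mean of 0.873. How many of all genes were lowest there was not counted. After rescaling 7 of 11 were lower, beside 43.6% of all genes, and the sums overlapped, at 39.0 to 49.1 and 38.3 to 41.2. At 4 weeks 30 of 32 members had a higher mean than at 2 weeks, with a median ratio of 1.33, where 80% of all genes were higher. After rescaling it was 21, beside 53.2% of all genes, and without replicates 3 and 4 it was 12, with a median ratio of 0.947, beside 51.3%. At 6 weeks 22 of 32 were higher, beside 45.9% of all genes, and after rescaling 25, beside 54.5%. Mki67 had 0.228, 0.227, 0.454, 1.09 and 0.137 TPM at 4 weeks, the pair that stood apart being the highest.

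**Figure D5:**
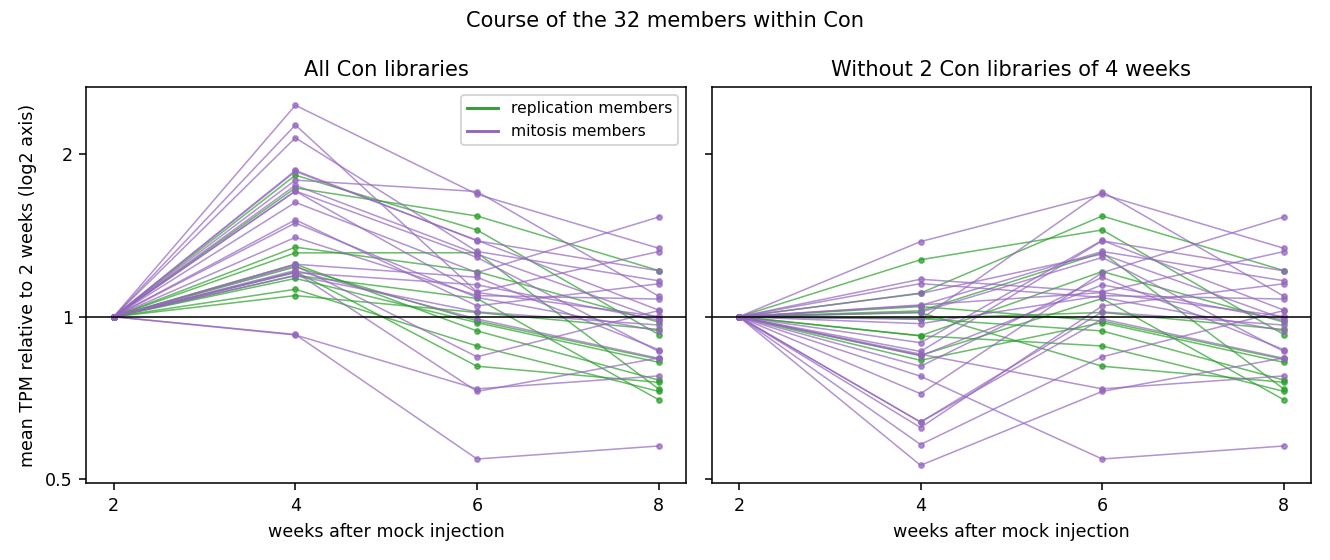
Mean TPM of each of the 32 members in Con relative to its mean at 2 weeks, on a log2 axis, with all libraries (left) and without replicates 3 and 4 of 4 weeks (right). Lines are members, green for replication and purple for mitosis; the rise at 4 weeks of 30 of 32 members on the left is seen for 12 of 32 on the right.

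A test of any difference among the 4 Con times called Mcm7 (limma F test, adjusted p = 0.00307) and Rrm1 (adjusted p = 0.00927), 2 of 13, where 32.2% of all genes were called. Mcm7 had 4.45, 5.08, 5.02, 4.03 and 3.58 TPM at 2 weeks, 4.76, 4.22, 5.98, 7.37 and 4.55 at 4 weeks, 2.90, 4.31, 3.65, 3.59 and 3.50 at 6 weeks, and 3.35, 3.75, 3.17, 3.39 and 3.11 at 8 weeks. The libraries of 2 and 8 weeks overlapped only between 3.58 and 3.75 TPM. Its log2 difference of 8 against 2 weeks by limma was -0.31 (SE 0.12, adjusted p = 0.147), and when only those groups were fitted it was called (adjusted p = 0.0481). Rrm1 had 14.6, 15.6, 10.3, 9.63 and 11.4 TPM at 2 weeks, 10.6, 10.9, 15.3, 19.8 and 12.4 at 4 weeks, 10.5, 13.9, 9.40, 12.1 and 8.41 at 6 weeks and 8.79, 9.27, 7.78, 9.75 and 9.13 at 8 weeks. Its log2 difference of 8 against 2 weeks was -0.40 (SE 0.13, adjusted p = 0.0987). Without Con replicates 3 and 4 of 4 weeks the test of any difference called 0 members, with 2 at an unadjusted p under 0.05, and 3% of all genes; after rescaling it called 0 as well (Mcm7 adjusted p = 0.143, Rrm1 0.308). Mcm2 had the third lowest p of 8 against 2 weeks and was not called (-0.20, adjusted p = 0.361).

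Other genes of the division cycle, from lists compiled by function, were read beside the members in CAC against Con at 8 weeks. There 52.1% of all genes were called higher and 1.97% lower. The lists here and in the next paragraphs are given on the deposited scale only. On that scale Pcna (log2 difference 0.54) and Mcm7 (0.48) were called higher, and after rescaling neither was. How the genes of these lists stand after rescaling is not given here. Of 21 other replication genes 15 were tested, and 9 were higher and 0 lower. Uhrf1, which carries DNA methylation through replication, had 2.51 ± 1.07 TPM in CAC and 0.723 ± 0.338 in Con (log2 difference 0.98 by limma, SE 0.25, adjusted p = 0.000993), and Gins1, a part of the active helicase, 2.71 ± 0.92 and 1.37 ± 0.25 TPM. Of 35 other mitosis genes 5 were tested: 3 were higher, among them Smc4 of condensin (3.93 ± 0.60 against 2.41 ± 0.50 TPM) and Pttg1, securin (1.95 ± 0.83 against 0.910 ± 0.111 TPM). The histone of the centromere, Cenpa, was lower (1.24 ± 0.65 against 2.33 ± 0.82 TPM).

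Of 14 E2F and DREAM factors 9 were tested and 4 were higher, 0 lower. They were led by Rbl2 (p130), the pocket protein of the repressive complex in resting cells, at 19.7 ± 5.2 TPM in CAC and 11.7 ± 1.1 in Con (log2 difference 0.66 by limma, adjusted p = 2.23e-05). E2f3 was at 3.90 ± 0.72 against 2.62 ± 0.43 TPM. Of 9 G1 cyclins and kinases 8 were tested, with 4 higher, such as Ccnd2 (15.8 ± 3.6 against 9.23 ± 1.55 TPM) and Ccne1 (2.30 ± 0.81 against 1.35 ± 0.34 TPM), and 1 lower. The lower one was Ccnd1, cyclin D1, at 1.51 ± 0.85 against 5.09 ± 1.19 TPM (log2 difference -1.33, SE 0.33, adjusted p = 0.000910).

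Of 10 inhibitors of the cyclin-dependent kinases and p53 targets 9 were tested, with 4 higher and 1 lower. Cdkn1a, the p21 inhibitor, was at 78.8 ± 42.2 TPM in CAC and 18.2 ± 12.1 in Con (log2 difference 1.99 by limma, SE 0.54, adjusted p = 0.00207), and the antiproliferative gene Btg2 at 45.8 ± 65.9 against 8.57 ± 3.34 TPM. Cdkn1c, the p57 inhibitor, was at 4.48 ± 1.32 against 13.4 ± 2.7 TPM (log2 difference -1.41, adjusted p = 3.47e-07). In Con at 8 against 2 weeks none of these 5 lists had a call.

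Of the 32 members, 10 share exon bases with another annotated gene in GENCODE M21, among them Mcm7, which overlaps Cops6, Ap4m1 and microRNA genes, and Stmn1, which overlaps a small RNA gene. Pcna has pseudogenes listed in the same table. How reads were divided between them is not given in the sources used here, so these values carry that limit.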

How the data were processed

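RNA of mouse brown adipose tissue was extracted with Trizol, made into TruSeq stranded mRNA libraries and sequenced on a NovaSeq, per the labels' protocols. The authors deposited 1 table of TPM (length-normalised shares of transcripts) for 47643 gene symbols in 62 libraries. The build mm10 comes from the submitters' processing notes; aligner, annotation and counting tool are not given in the sources used here. TPM keep no read counts, so depth is unknown and no counting error can be given. All sample columns were used (0 unused), matched to labels by title; 1 sample number occurs in the titles of 2 libraries of different groups, which were told apart by the group name. No 2 libraries held identical values (highest Pearson r over genes 0.990).

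Groups came from the sample labels. Genes at 1 TPM or more in at least 5 libraries (12581) were tested on log2(TPM + 1) with limma 3.58.1 in R 4.3.3 (1 mean for each of 12 groups, moderated with a trend), in 21 comparisons, with Benjamini-Hochberg adjustment within each. The fit was tested on simulated data of 12581 genes, 200 of them changed, with independent noise. For CAC against Con at 8 weeks it recovered 61% of changes of 0.5 and 90.5% of changes of 1 on the log2 scale. For Con at 8 against 2 weeks it recovered 52.5% and 92.5%, with 14 and 8 false calls. Only genes with a mean log2(TPM + 1) of at least 1 were changed. Recovery for lower tested members, such as Rrm2, Mcm5 and Tyms, is therefore not known. Alternatives were a pseudocount of 0.1, no filter, rescaling by the median of gene ratios, only the groups compared, a replicate block, each library left out in turn, and Con replicates 3 and 4 of 4 weeks left out. No filter together with a pseudocount of 0.1 was added after seeing the data.

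The members and lists were chosen with earlier results of these data known. Every-library values are given by rule for Mki67, Top2a, Cdk1, Mcm2 and Tyms, and for the 3 tested members with the lowest p in CAC against Con at 8 weeks, CAC against NCAC at 8 weeks and Con at 8 against 2 weeks. In each other list the 2 called genes with the largest rise and the 2 with the largest fall were named where the group with the higher level averaged 1 TPM or more. Gene positions came from GENCODE M21 on mm10, and promoter sequences from RefSeq on GRCm38.p6. Figures were drawn with matplotlib 3.10.9 in Python 3.11.15.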

Additional observations from a re-analysis of the deposited data

Results flagged for a closer look

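In 156 checks of 13 measures in 12 groups, 21 had a highest or lowest library set off from the rest of its group by more than Dixon's 95% critical value (gap over range above 0.71 for 5 libraries, 0.568 for 7). Chance gives about 1 in 20, or 7.8 of 156. The 21 came from 9 libraries, and the measures are not independent of each other.

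NCAC replicate 5 at 8 weeks gave 7 of them, as the highest library: the gap over range was 0.833 for Mki67, 0.845 for Top2a, 0.799 for Cdk1, 0.838 for Mcm2, 0.878 for Stmn1, 0.867 for Rrm2 and 0.851 for the summed mitosis members.

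CAC replicate 4 at 8 weeks was set off upward for Cdk1 (0.791, at 1.50 TPM beside 0.430 in the next library) and Top2a (0.604, 0.418 beside 0.202 TPM). CAC replicate 4 at 6 weeks was high for Cdk1 (0.831, 0.318 beside 0.184 TPM) and Mcm7 (0.796, 5.59 beside 4.49 TPM). CAC replicate 2 at 4 weeks was high for Pcna (0.719, 29.4 beside 20.6 TPM), Mcm4 (0.807, 5.97 beside 3.48 TPM) and Mcm7 (0.775, 5.08 beside 4.61 TPM). CAC replicate 4 at 2 weeks was high for Mcm4 (0.817, 3.96 beside 2.56 TPM) and the summed replication members (0.784, 52.0 beside 46.8 TPM).

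NCAC replicate 2 at 4 weeks was high for Tyms (0.872, 1.44 beside 0.879 TPM) and Mcm4 (0.74, 3.70 beside 2.37 TPM). Con replicate 4 at 4 weeks was high for Tyms (0.755, 1.93 beside 0.950 TPM), and Con replicate 2 at 6 weeks for Mcm4 (0.747, 3.04 beside 2.14 TPM). Con replicate 2 at 2 weeks was the single low one, for Rrm2 (0.776, 0.341 beside 0.499 TPM).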

How the results depend on the processing

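Counts of called members that moved by more than 1.5 times were as follows. Rescaling gave 1 in CAC against Con at 6 weeks (2 higher and 1 lower before, Stmn1 lower after), 2 in the change of CAC against that of NCAC (0 before) and 0 in the test of any difference among Con times (2 before); leaving out Con replicates 3 and 4 of 4 weeks also gave 0 there. Fitting only the groups compared gave 2 in CAC against Con at 2 weeks (0 before), 5 at 8 weeks (3 before), 0 in CAC against NCAC at 8 weeks (4 before), 1 in Con at 8 against 2 weeks (0 before), 1 in the change of CAC against that of Con (Stmn1, 0 before) and 1 in the test among Con times (2 before). With no filter and a pseudocount of 0.1, 5 were called in CAC at 8 against 2 weeks (3 before). The replicate block gave 1 there (Stmn1). In 0 of 17 comparisons did all same-numbered libraries correlate above 0.1 (range -0.456 to 0.564), and the main fit holds no pairing. That check asks it of every pair, so it cannot exclude pairing. In Con at 4 against 2 weeks same-numbered libraries averaged 0.21 and other pairs -0.0521. In CAC against NCAC at 8 weeks it was the other way, at -0.141 and 0.023. The causes of these moves in the counts were not tested. Shares of all genes called after rescaling, or with only the groups compared, are not given here, so these counts stand without them.

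With 1 library left out, the count ranged from 1 to 3 in CAC against Con at 6 weeks, 3 to 4 at 8 weeks, 2 to 3 in CAC against NCAC at 6 weeks, 2 to 4 at 8 weeks, 1 to 4 in CAC at 8 against 2 weeks, 1 to 3 among Con times, 0 to 1 in Con at 4 against 2 weeks and 0 to 1 in the change of CAC against that of Con. In Con at 4 against 2 weeks the 1 was Stmn1 (0.69 by limma, adjusted p = 0.0492, without Con replicate 1 of 4 weeks). The lowest count at 6 weeks came without CAC replicate 2 or Con replicate 5. No called member changed direction under any alternative run.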
